A study of Mus musculus with 10 samples.

Results

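The insulin-like growth factor (IGF) axis was followed as 10 genes in RNA-seq of 10 mouse tumors. The genes were taken by symbol from the deposited tables, and all 10 were present among the 16895 genes listed: the ligands IGF1 and IGF2, the receptors IGF1R and IGF2R, and the binding proteins IGFBP2, IGFBP3, IGFBP4, IGFBP5, IGFBP6 and IGFBP7. All 10 passed the filter on low values and were tested. The tumors came from the series on YAP1-driven, meningioma-like growth. Host mice carried tv-a, the receptor for avian RCAS virus, under Nestin control and were null for Cdkn2a in every group. At postnatal day 0 to 3 they received, in the space beneath the arachnoid, chicken DF1 cells that produced RCAS virus. The virus carried NLS-2SA-YAP1 (n = 3 tumors), a constitutively active YAP1 by the series title, or YAP1-MAML2-v2 (n = 7 tumors), a fusion of YAP1 to the Notch coactivator MAML2. NLS-2SA-YAP1 replicate 1 and YAP1-MAML2-v2 replicates 2 and 6 are labelled extra axial. NLS-2SA-YAP1 replicates 2 and 3 and YAP1-MAML2-v2 replicates 1, 3, 4 and 5 are labelled extra cranial, and YAP1-MAML2-v2 replicate 7 is labelled intra ventricular. Normal meninges were not analysed here, and the labels do not state the age of the mice at collection.

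IGF1 and IGF2 are secreted growth factors that act through the receptor tyrosine kinase IGF1R, while IGF2R binds IGF2 and carries it to lysosomes for breakdown. The binding proteins hold the ligands outside the cell and can limit or prolong their action, and IGFBP7 binds IGFs only weakly. In the developing brain the leptomeninges are a known source of IGF2 and of several binding proteins, and Igf2 is imprinted in mice.

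The labels give the cell type as DF1, the producer line, while the tables hold mouse genes. Library totals of deposited values ran from 28001143 to 44544314. Of 16 markers of meningeal fibroblasts and arachnoid, TCF21 was at 0 in every library, PTGDS also in YAP1-MAML2-v2 replicate 5 and CLDN11 also in replicate 6. The summed level of the list was 8681 to 12404 CPM in the NLS-2SA-YAP1 group and 4066 to 11732 CPM in the YAP1-MAML2-v2 group, where CPM is a gene's deposited value scaled to its library's TMM-adjusted total. The deposited tables of YAP1-MAML2-v2 replicates 6 and 7 carry the same number in their names, so these 2 tumors may come from 1 mouse, and the labels name no mouse. Nothing in the labels states that the other tumors came from separate mice, so p-values measure the spread between these samples. In bulk tumor RNA, fewer cells of a type and less RNA per cell cannot be told apart.

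Promoter windows of 250 bases before to 50 after each annotated start were read from RefSeq (GRCm38.p6). All 10 genes matched, with 14 windows, since Igf2 has 4 and Igfbp2 has 2. YAP1 reaches DNA through TEAD factors, so the TEAD motif GGAATG was searched on both strands, where it reads CATTCC on the other strand. It was found in 4 of 14 member windows, of which 3 belong to Igf2 and 1 to Igfbp5, and in 14.7% of 32851 windows of all genes. The windows of the other 8 genes held no match. Shown here are the Igf2 window with 2 matches, at chr7:142661222-142661521 on the minus strand, and the Igfbp5 window, at chr1:72874816-72875115 on the minus strand, because these genes reached the highest levels among the members. Each is written 5′ to 3′ on its gene's strand with the motif in capitals.
Igf2: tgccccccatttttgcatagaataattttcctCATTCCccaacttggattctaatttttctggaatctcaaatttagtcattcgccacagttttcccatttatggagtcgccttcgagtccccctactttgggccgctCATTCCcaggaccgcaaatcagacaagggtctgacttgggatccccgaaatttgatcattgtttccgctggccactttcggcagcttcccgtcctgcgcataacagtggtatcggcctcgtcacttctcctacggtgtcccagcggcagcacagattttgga
Igfbp5: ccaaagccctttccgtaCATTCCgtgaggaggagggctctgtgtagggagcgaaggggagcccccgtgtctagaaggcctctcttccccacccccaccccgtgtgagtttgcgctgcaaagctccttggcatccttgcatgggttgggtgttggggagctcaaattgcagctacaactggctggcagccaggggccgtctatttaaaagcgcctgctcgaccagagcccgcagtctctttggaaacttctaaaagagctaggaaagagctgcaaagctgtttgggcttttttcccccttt
A match describes the letters of a window and is not evidence of binding.

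Levels of different genes were compared as CPM divided by the length of the gene's merged exons in kb (CPM per kb). By the median over the 10 libraries, IGFBP5 stood first at 813 CPM per kb, followed by IGFBP2 at 195, IGFBP6 at 191, IGF2 at 136, IGFBP7 at 113 and IGFBP4 at 64.8 CPM per kb. IGF2R followed at 35.9, IGFBP3 at 25.5, IGF1R at 14.4 and IGF1 at 4.77 CPM per kb. The range over libraries overlapped between every pair of neighbors in this order. IGFBP4 was above IGF2R in 9 of 10 libraries, and IGFBP5 was above IGFBP2 in 7 of 10. IGFBP2 was above IGFBP6 in 5 of 10 libraries and IGF2R above IGFBP3 in 5 of 10, so these pairs had no set order. IGF2 had a higher median than IGFBP7 but was above it in only 2 of 10 libraries.

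**Figure D1:**
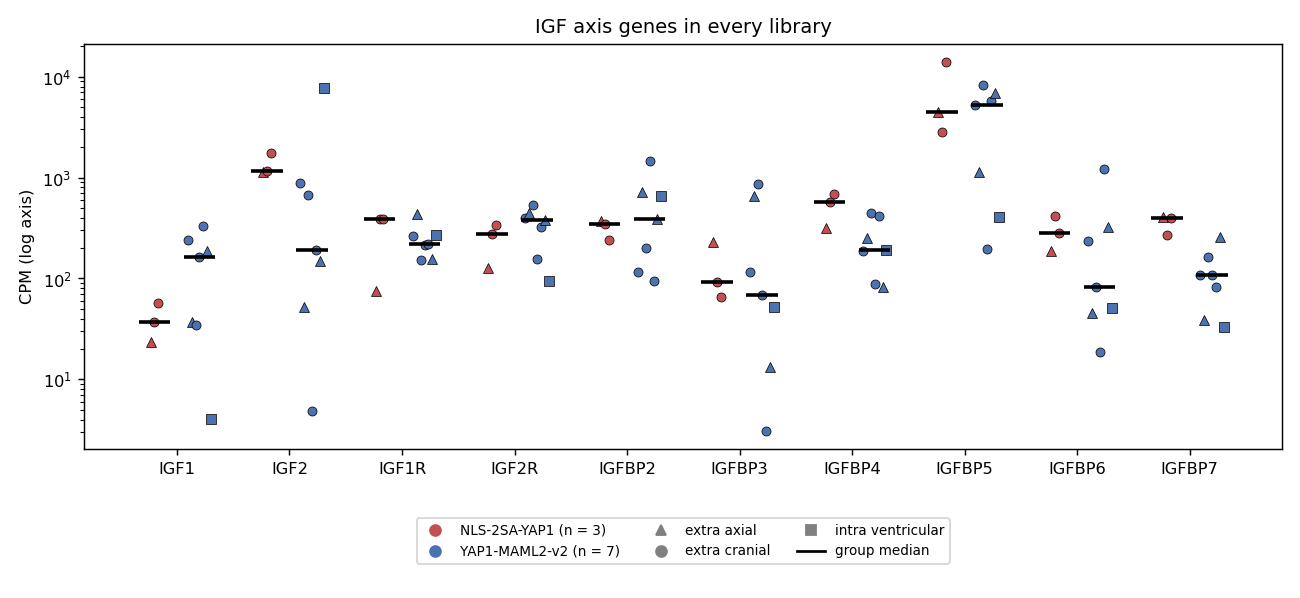
CPM of the 10 IGF axis genes in every library on a log axis, with NLS-2SA-YAP1 tumors left of YAP1-MAML2-v2 tumors, regions as symbols and bars at group medians. IGFBP7 is the gene whose construct groups do not overlap, at 269 to 403 CPM in NLS-2SA-YAP1 against 33.2 to 255 CPM in YAP1-MAML2-v2.

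The first comparison asked whether tumors of the 2 constructs differed in these genes. No member passed the test between constructs: edgeR called 0 of 10, against 0.0146% of all 13707 genes tested, at an adjusted p under 0.05. At an unadjusted p under 0.05 it had 2 of 10, IGF1 and IGFBP7, against 13.1% of all genes. Of the 10 members 5 had a positive and 5 a negative log2 fold change (NLS-2SA-YAP1 minus YAP1-MAML2-v2), with a median of 0.04, beside -0.03 over all genes tested. The sizes below are therefore values, and none is a called change in that fit. The fit holds region as a term, and YAP1-MAML2-v2 replicate 7, the sole intra ventricular library, has a region term to itself and so does not inform these values.

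Of the ligands, IGF2, the fetal growth factor, stood at 1134, 1160 and 1766 CPM in replicates 1, 2 and 3 of NLS-2SA-YAP1. In YAP1-MAML2-v2 tumors the lowest was 4.85 CPM in replicate 4, the median 192 CPM and the highest 7679 CPM in replicate 7. The NLS-2SA-YAP1 tumors were alike and high, and of the YAP1-MAML2-v2 tumors the intra ventricular one lay above them and the other 6 lay below, at up to 883 CPM. NLS-2SA-YAP1 tumors averaged 1354 ± 357 CPM (SD, n = 3). YAP1-MAML2-v2 tumors averaged 1376 ± 2799 CPM (SD, n = 7), or 326 ± 363 CPM without replicate 7 (SD, n = 6). The edgeR log2 fold change was 2.39 (SE 1.08), with an adjusted p of 0.389, and without the region term it was -0.02 (adjusted p = 0.997). An exact two-sided permutation of all 10 libraries gave p = 0.2. Within the extra cranial region the 2 NLS-2SA-YAP1 tumors averaged 1463 CPM and the 4 YAP1-MAML2-v2 tumors 438 CPM without overlap. The exact permutation p of 0.133 there is the smallest that 2 against 4 allows. Any such groups without overlap give it.

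The choroid plexus is a known source of IGF2 within the ventricles. Its marker TTR, the thyroxine carrier transthyretin, was at 0.568 CPM in the intra ventricular tumor, at 1.25 CPM in YAP1-MAML2-v2 replicate 1 and at 0 in the other 8 libraries. KCNJ13 was at or below 0.0253 CPM in every library. The summed level of the 8 choroid plexus markers was 132 to 437 CPM in the NLS-2SA-YAP1 group and 26.3 to 231 CPM in the YAP1-MAML2-v2 group, with 231 CPM in replicate 7. In the intra ventricular tumor TTR and KCNJ13 were thus at or near 0, while FOLR1 was 30.8 CPM, the top value of the series, and 7 of the 8 markers were above 0. Since 0 and 1 also occur in genes with a high median in these tables, a value there may be a failed estimate, and the same holds for the other markers listed at or near 0. The meningeal fibroblast and arachnoid list summed to 11732 CPM in that tumor, where PTGDS, the arachnoid prostaglandin D synthase, had its top value of 8542 CPM while the matrix genes COL1A1 and DCN had their lowest values, 321 and 19.6 CPM. The 6 neuronal markers summed to 651 CPM in it, within the range of 383 to 1075 CPM over all libraries. By detection it was less ordinary. Of the 6 markers 0 were listed at 0 or 1 in it and in YAP1-MAML2-v2 replicate 3, against 1 to 4 in each other library. Among these markers SNAP25 alone was 39.8 CPM in that tumor, against at most 1.87 CPM in each other library. The part of these cell types in its IGF2 level was not tested.

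IGF1, the ligand that growth hormone induces in many tissues, had 23.5, 37.2 and 57.4 CPM in replicates 1, 2 and 3 of NLS-2SA-YAP1. In YAP1-MAML2-v2 tumors the lowest was 4.05 CPM in replicate 7, the median 165 CPM and the highest 330 CPM in replicate 5. The groups overlapped, since YAP1-MAML2-v2 replicates 2, 3 and 7 did not exceed the highest NLS-2SA-YAP1 tumor and the other 4 lay above all 3 of them. Mean IGF1 was 39.4 ± 17 CPM in NLS-2SA-YAP1 (SD, n = 3) and 142 ± 122 CPM in YAP1-MAML2-v2 (SD, n = 7). The log2 fold change of -2.10 (SE 0.73) had an edgeR adjusted p of 0.291. DESeq2 with the same terms placed IGF1 past the threshold (log2 fold change -2.12, adjusted p = 0.0303), where it called 5.01% of the 13455 genes it gave an adjusted p. It gave none for IGFBP2. An exact two-sided permutation over the 10 libraries gave p = 0.583. Over all settings tried the adjusted p of IGF1 ran from 0.0303 to 0.785. Tumor macrophages are a known source of IGF1. The summed level of 10 macrophage and microglia markers was 637 to 1060 CPM in the NLS-2SA-YAP1 group and 678 to 2445 CPM in the YAP1-MAML2-v2 group. It was highest in YAP1-MAML2-v2 replicates 5 and 7, the tumors with the most and the least IGF1. Within the list CD68 was at most 0.66 CPM in every library. The part of macrophages in the IGF1 difference was not tested.

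Side by side, the ligands gave each tumor its own balance. IGF2 per kb exceeded IGF1 per kb by 83.5, 54 and 53.3 times in NLS-2SA-YAP1 replicates 1, 2 and 3. In YAP1-MAML2-v2 tumors this ratio was 0.051 in replicate 4, 1.01 in replicate 5, 1.4 in replicate 6, 2.44 in replicate 2, 6.33 in replicate 1, 33.9 in replicate 3 and 3282 in replicate 7. Outside the ventricle every NLS-2SA-YAP1 tumor was thus above every YAP1-MAML2-v2 tumor in this ratio, which was chosen after the values were seen and was not tested.

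**Figure D2:**
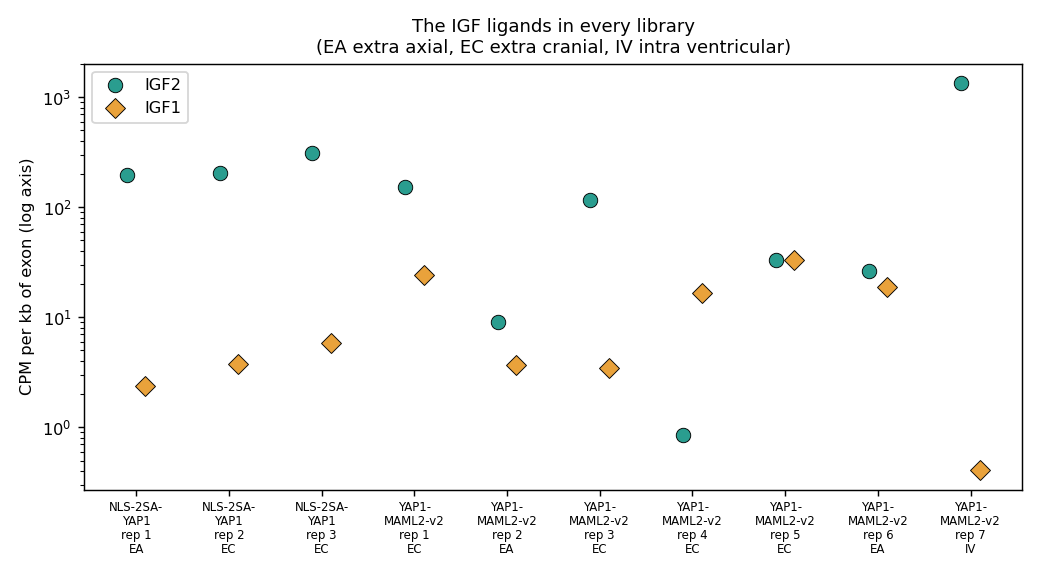
CPM per kb of exon of IGF2 and IGF1 on a log axis in each library, with NLS-2SA-YAP1 tumors at the left. The ratio of IGF2 to IGF1 is 53.3 to 83.5 in NLS-2SA-YAP1 tumors and 0.051 to 3282 in YAP1-MAML2-v2 tumors.

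The receptors spanned narrower ranges than the other members. IGF1R, the signaling receptor of both ligands, had 74.7, 392 and 390 CPM in replicates 1, 2 and 3 of NLS-2SA-YAP1. In YAP1-MAML2-v2 tumors its lowest value was 153 CPM, its median 221 CPM and its highest 438 CPM. The extra axial NLS-2SA-YAP1 tumor was the lowest of all libraries, while the extra cranial pair lay above 6 of the 7 YAP1-MAML2-v2 tumors. Its difference was 0.17 on the log2 scale (SE 0.58; edgeR adjusted p = 0.942), with a sign that turned under some settings. IGF2R, the receptor that clears IGF2, had 127, 274 and 342 CPM in replicates 1, 2 and 3 of NLS-2SA-YAP1. In YAP1-MAML2-v2 tumors it had 94.2 CPM at the lowest, in replicate 7, a median of 377 CPM and 531 CPM at the highest. These groups overlapped, with a log2 fold change of -0.63 (SE 0.46; edgeR adjusted p = 0.603). The intra ventricular tumor, with the most IGF2, had the least IGF2R, and it was the sole library with more IGF1R than IGF2R per kb, at a ratio of 1.59 against 0.16 to 0.793 elsewhere.

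Among the binding proteins IGFBP7, a secreted matrix-associated protein found in vessels and stroma, was the member whose construct groups did not overlap. It had 403, 269 and 393 CPM in replicates 1, 2 and 3 of NLS-2SA-YAP1. In YAP1-MAML2-v2 tumors the lowest was 33.2 CPM in replicate 7, the median 107 CPM and the highest 255 CPM in replicate 6. The gap was narrow, between 269 CPM in the lowest NLS-2SA-YAP1 and 255 CPM in the highest YAP1-MAML2-v2 tumor. IGFBP7 averaged 355 ± 74.7 CPM in NLS-2SA-YAP1 (SD, n = 3) and 113 ± 77.2 CPM in YAP1-MAML2-v2 (SD, n = 7). With a log2 fold change of 1.49 (SE 0.49), the edgeR adjusted p of 0.274 did not pass. The exact two-sided permutation p over all 10 libraries, with no region term, was 0.0167, the smallest that 3 against 7 allows. Groups that do not overlap always give that value, so it restates the lack of overlap. Without overlap in either direction were 6.73% of all genes tested, so 1 of 10 members is near the background. Over the settings tried the log2 fold change ran from 1.30 to 2.02 and the adjusted p from 0.0797, with DESeq2, to 0.581. Limma-voom with sample quality weights, which called 0.671% of all genes, called 0 of 10 members. The 10 endothelial markers summed to 208 to 580 CPM in the NLS-2SA-YAP1 group and 172 to 1071 CPM in the YAP1-MAML2-v2 group, with none at 0. The part of endothelium in the IGFBP7 levels was not tested.

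IGFBP4, which blocks IGF action until the protease PAPPA cleaves it, had 318, 577 and 687 CPM in replicates 1, 2 and 3 of NLS-2SA-YAP1. In YAP1-MAML2-v2 tumors it ran from 82.1 CPM in replicate 6 over a median of 191 CPM to 447 CPM in replicate 3. YAP1-MAML2-v2 replicates 3 and 5 reached into the NLS-2SA-YAP1 range, and the other 5 lay below it. A log2 fold change of 1.08 (SE 0.53; edgeR adjusted p = 0.422) kept its sign under every setting tried, from 0.83 to 1.47. NLS-2SA-YAP1 replicates 2 and 3 and YAP1-MAML2-v2 replicate 3 also carried skeletal muscle transcripts, with 10 markers summing to 111, 401 and 92.6 CPM against at most 10.8 CPM in each other library. These 3 tumors had the top values of IGFBP4, and the part of muscle in them was not tested.

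IGFBP5, a binding protein of bone, muscle and fibroblasts that also binds matrix, was among the most abundant transcripts of these tumors. It had 4469, 2841 and 13878 CPM in replicates 1, 2 and 3 of NLS-2SA-YAP1. YAP1-MAML2-v2 tumors ran from 198 CPM in replicate 4 over a median of 5301 CPM to 8198 CPM in replicate 3. By CPM it ranked 6, 14 and 2 among all genes of NLS-2SA-YAP1 replicates 1, 2 and 3, and 3, 58, 5, 1112, 4, 2 and 374 in YAP1-MAML2-v2 replicates 1 to 7. The groups overlapped in part: NLS-2SA-YAP1 replicate 3 lay above every YAP1-MAML2-v2 tumor, and YAP1-MAML2-v2 replicates 2, 4 and 7 lay below every NLS-2SA-YAP1 tumor. IGFBP5 had a log2 fold change of 0.58 (SE 0.94; edgeR adjusted p = 0.858). Without NLS-2SA-YAP1 replicate 3 that value was -0.32. IGFBP5 was highest in NLS-2SA-YAP1 replicate 3 and YAP1-MAML2-v2 replicate 3, where the 10 skeletal muscle markers summed to 401 and 92.6 CPM. NLS-2SA-YAP1 replicate 2, with a muscle sum of 111 CPM, had the lowest IGFBP5 of its construct. The part of muscle in the IGFBP5 levels was not tested.

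IGFBP2, a binding protein of the fetal brain and meninges, lies beside IGFBP5 on mouse chromosome 1, with their ends 5457 bases apart (mm10; Igfbp2 at 72824503 to 72852474, Igfbp5 at 72857932 to 72874884). IGFBP2 had 371, 349 and 242 CPM in replicates 1, 2 and 3 of NLS-2SA-YAP1. Its YAP1-MAML2-v2 values ran from 94.5 CPM in replicate 5 over a median of 391 CPM to 1471 CPM in replicate 4. The NLS-2SA-YAP1 values lay inside that range, with a log2 fold change of -0.64 (SE 0.85; edgeR adjusted p = 0.806). The neighbors stood at opposite ends of their ranges in YAP1-MAML2-v2 replicate 4, which had the most IGFBP2 and the least IGFBP5. Replicates 2 and 7 of that construct had the next highest IGFBP2 and the next lowest IGFBP5. This was not so in every tumor: NLS-2SA-YAP1 replicate 3, with the most IGFBP5, had 242 CPM of IGFBP2. YAP1-MAML2-v2 replicate 6 had 391 CPM of IGFBP2 and 6940 CPM of IGFBP5. The ratio of IGFBP5 to IGFBP2 per kb was 3.71, 2.5 and 17.6 in NLS-2SA-YAP1 replicates 1, 2 and 3. In YAP1-MAML2-v2 tumors it was 0.0414 in replicate 4, 0.19 in replicate 7, 0.486 in replicate 2 and 5.46 to 18.9 in the other 4.

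IGFBP3, the main carrier of IGFs in blood, had 230, 91.7 and 65.6 CPM in replicates 1, 2 and 3 of NLS-2SA-YAP1. Across YAP1-MAML2-v2 tumors it ran from 3.1 CPM in replicate 5 over a median of 68 CPM to 861 CPM in replicate 3. The difference of -1.31 on the log2 scale (SE 1.52; edgeR adjusted p = 0.771) was 0.04 without YAP1-MAML2-v2 replicate 3. IGFBP6, which prefers IGF2 over IGF1, had 189, 418 and 285 CPM in replicates 1, 2 and 3 of NLS-2SA-YAP1. Its range in YAP1-MAML2-v2 tumors went from 18.7 CPM in replicate 4 over a median of 82.8 CPM to 1225 CPM in replicate 5. Here the difference of -0.09 on the log2 scale (SE 1.09, edgeR adjusted p = 0.986) was 1.13 without YAP1-MAML2-v2 replicate 5. For both genes the NLS-2SA-YAP1 values lay inside the wider range of the YAP1-MAML2-v2 tumors.

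As shares of the summed CPM per kb of the 6 binding proteins, IGFBP5 came first in 6 of 10 libraries, IGFBP2 in 3 and IGFBP6 in 1. IGFBP5 led in all NLS-2SA-YAP1 tumors, with 46.7%, 33.3% and 72.2% in replicates 1, 2 and 3. Of the YAP1-MAML2-v2 tumors it led in replicates 1, 3 and 6, with 66.6%, 66.2% and 61%. IGFBP2 led in YAP1-MAML2-v2 replicates 2, 4 and 7, from 3 different regions, with 42.5%, 81.4% and 63.9%. IGFBP6 led in replicate 5 with 48.3%, just above IGFBP5 at 42.3%. The sum itself ran from 1421 to 3201 CPM per kb in NLS-2SA-YAP1 tumors and from 558 to 2280 CPM per kb in YAP1-MAML2-v2 tumors. IGFBP7 held 20.9%, 15.7% and 10.2% in NLS-2SA-YAP1 replicates 1, 2 and 3 and at most 11.1% in any YAP1-MAML2-v2 tumor.

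**Figure D3:**
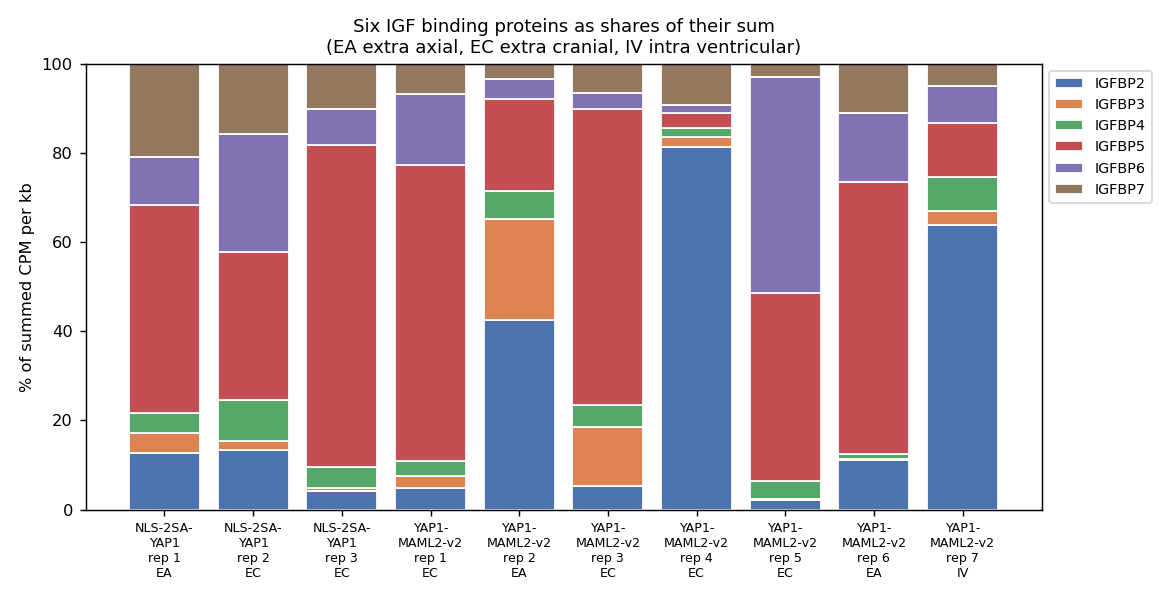
Stacked bars give each binding protein's percent of the summed CPM per kb of the 6 binding proteins in every library, with NLS-2SA-YAP1 tumors at the left. IGFBP5 leads in 6 libraries, IGFBP2 in YAP1-MAML2-v2 replicates 2, 4 and 7 and IGFBP6 in replicate 5.

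Within the extra cranial region alone, 4 of 10 members did not overlap between 2 NLS-2SA-YAP1 and 4 YAP1-MAML2-v2 tumors, against 22.2% of all genes tested. These were IGF2, IGF1R, IGFBP4 and IGFBP7, all higher in NLS-2SA-YAP1. The 10 skeletal muscle markers summed to 111 and 401 CPM in these NLS-2SA-YAP1 tumors, against 2.14, 92.6, 2.72 and 5.01 CPM in YAP1-MAML2-v2 replicates 1, 3, 4 and 5, and the part of muscle in these values was not tested. IGF1R averaged 391 CPM in the NLS-2SA-YAP1 pair and 213 CPM in the YAP1-MAML2-v2 tumors there. IGFBP4 averaged 632 CPM in the NLS-2SA-YAP1 pair against 284 CPM in YAP1-MAML2-v2, and IGFBP7 331 CPM in the NLS-2SA-YAP1 pair against 116 CPM in YAP1-MAML2-v2. In edgeR's fit of these 6 libraries no member passed, with 4 genes called among all genes tested.

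The second comparison set 3 extra axial tumors beside 6 extra cranial ones. No member passed: edgeR called 0 of 10, against 0% of all genes tested, and 0 of 10 had an unadjusted p under 0.05, against 3.01% of all genes. DESeq2, which called 0.230% of the genes it gave an adjusted p, called 0 of the 9 members that had one, IGFBP2 having none. Limma-voom with sample quality weights called 0 of 10 members and 0% of all genes. Of the 10 members 3 were higher and 7 lower in extra axial tumors, with a median log2 fold change (extra axial minus extra cranial) of -0.35, beside -0.01 over all genes. Of the 10 skeletal muscle markers 6 were tested, and all 6 had negative log2 fold changes here, with a median of -3.16. Among these 6, 0 passed the threshold and 2 had an unadjusted p under 0.05. Several other marker lists also leaned negative. These include macrophages and microglia (8 of 9, median -0.49) and bone and cartilage (6 of 7, median -0.86). The pericyte and smooth muscle list had 4 of each sign. The part of these cell types in the members' values was not tested. The groups overlapped in all 10 members, and 0.890% of all genes did not overlap.

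Of the ligands, IGF2 had 1134 CPM in NLS-2SA-YAP1 replicate 1 and 52 and 151 CPM in YAP1-MAML2-v2 replicates 2 and 6, the extra axial tumors. Extra cranial tumors had 4.85 CPM at the lowest, a median of 778 CPM and 1766 CPM at the highest. The high values on both sides belonged to NLS-2SA-YAP1 tumors. Its log2 fold change was -1.46 (SE 1.19), and that of IGF1 was -0.86 (SE 0.68). IGF1 averaged 82 ± 90 CPM in extra axial (SD, n = 3) and 144 ± 123 CPM in extra cranial tumors (SD, n = 6). Each edgeR adjusted p of a member in this comparison was 1.

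Binding proteins also spread widely within each region. IGFBP4 averaged 218 ± 122 CPM in extra axial (SD, n = 3) and 400 ± 227 CPM in extra cranial tumors (SD, n = 6), a log2 fold change of -0.83 (SE 0.56). IGFBP6 averaged 187 ± 140 CPM in extra axial (SD, n = 3) and 378 ± 439 CPM in extra cranial tumors (SD, n = 6), a log2 fold change of -1.01 (SE 1.13), which was 0.21 without YAP1-MAML2-v2 replicate 5. IGFBP3 had a log2 fold change of 0.78 (SE 1.40). It ran from -0.27, leaving out YAP1-MAML2-v2 replicate 2, to 2.13, leaving out replicate 3. IGFBP5 had -0.47 (SE 0.98), IGFBP7 0.32 (SE 0.50) and IGFBP2 0.27 (SE 0.82) as log2 fold changes. The receptors had log2 fold changes of -0.23 (SE 0.58) for IGF1R and -0.22 (SE 0.45) for IGF2R.

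**Figure D4:**
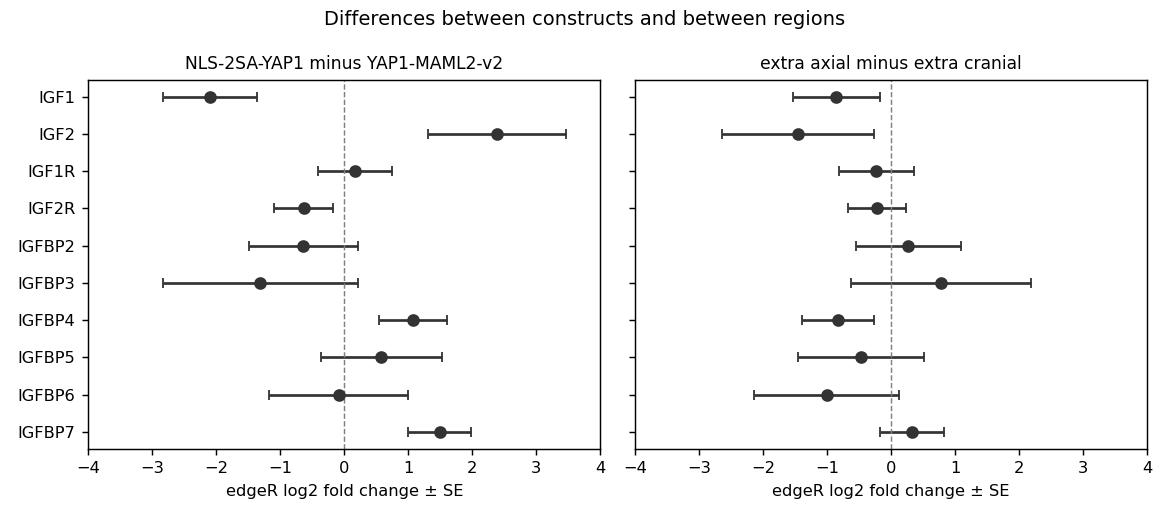
EdgeR log2 fold change with its SE (derived from the F of the test) for each member between constructs (left) and between regions (right). IGF2, IGFBP7 and IGFBP4 lie highest between constructs at 2.39, 1.49 and 1.08 and IGF1 lowest at -2.10. No member passed the adjusted threshold in either comparison.

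Whether the region difference itself differed between constructs was fitted in the 9 libraries outside the ventricle, with 1 extra axial NLS-2SA-YAP1 tumor. No member passed, and edgeR called 0.00741% of all 13487 genes. IGF1R had the smallest p of the members, with an interaction of -2.86 on the log2 scale (SE 0.85, unadjusted p = 0.00882, edgeR adjusted p = 0.658). An unadjusted p under 0.05 was reached by 1 of 10 members and by 7.14% of all genes. In NLS-2SA-YAP1 tumors IGF1R was 74.7 CPM in the extra axial library and 392 and 390 CPM in the extra cranial ones. In YAP1-MAML2-v2 tumors it was 157 and 438 CPM in extra axial and 153 to 262 CPM in extra cranial ones.

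Further genes of the pathway were taken as 38 genes in 3 lists, of which H19 was not analysed here and 6 were too low to test: IGFBP1, IGFBPL1, IGFALS, PAPPA2, IRS4 and DLK1. Of the secreted regulators, 4 of 8 were tested and 0 passed in either comparison (between constructs 2 positive and 2 negative log2 fold changes, median -0.27). PAPPA, the protease that frees IGFs from IGFBP4, had 25.1 to 50.8 CPM in the NLS-2SA-YAP1 group and 21 to 454 CPM in the YAP1-MAML2-v2 group. The highest value was in YAP1-MAML2-v2 replicate 3, and the log2 fold change of -1.23 (SE 0.91) had an edgeR adjusted p of 0.611. The log2 fold change of STC2, a PAPPA inhibitor, was 1.07 (SE 0.99), and that of its relative STC1 was -0.72 (SE 1.24).

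Of the receptors and signal chain 17 of 18 genes were tested and 0 passed between constructs (9 higher, 8 lower, median log2 fold change 0.02). IRS1, the adaptor that couples IGF1R to PI3 kinase, had the smallest p. It had 12.9, 25 and 10.7 CPM in replicates 1, 2 and 3 of NLS-2SA-YAP1 and 33.6 to 121 CPM in the YAP1-MAML2-v2 group, without overlap. With a log2 fold change of -2.30 (SE 0.49), its edgeR adjusted p was 0.161. FOXO1, a transcription factor that insulin and IGF signals hold out of the nucleus, had a log2 fold change of -1.25 (SE 0.55; edgeR adjusted p = 0.375). An unadjusted p under 0.05 was reached by 2 of the 17 genes, IRS1 and FOXO1, against 13.1% of all genes, a share near the background.

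Of the IGF2 mRNA regulators and imprinted growth genes 10 of 12 were tested and 1 passed between constructs, against 0.0146% of all 13707 genes tested. It was IGF2BP1, which encodes an RNA-binding protein of IGF2 and other mRNAs, and the list was chosen with earlier results of these data known. Leaving out NLS-2SA-YAP1 replicate 2 or 3, or YAP1-MAML2-v2 replicate 2, 4 or 6, edgeR called 0 genes, so IGF2BP1 did not pass there. IGF2BP1 stood at 9.38, 9.74 and 10.6 CPM in replicates 1, 2 and 3 of NLS-2SA-YAP1, while all 7 YAP1-MAML2-v2 tables list 0 or 1 for it (edgeR adjusted p = 0.0406). Such a value may be a failed estimate, and no fold is printed. IGF2BP1 passed the filter on low values only through the NLS-2SA-YAP1 tumors, the group where it is high. Its count in the list and its adjusted p are therefore a description and not separate support. The IGF2 levels of YAP1-MAML2-v2 tumors, up to 7679 CPM, thus stood beside IGF2BP1 values of 0 or 1. Between regions 0 genes of the 3 lists passed. In that comparison FOXO1, PIK3R1 and SHC1 had the smallest p of the signal chain. Their log2 fold changes were -0.82 (SE 0.54), -0.89 (SE 0.59) and -0.50 (SE 0.36). For the secreted regulators the genes of smallest p were PAPPA with -1.72 (SE 0.94), HTRA1 with -0.75 (SE 0.76) and STC1 with 0.28 (SE 1.20). For the third list they were IGF2BP2 with -1.72 (SE 0.62; unadjusted p = 0.0196), PLAG1 with -1.68 (SE 1.14) and IGF2BP3 with -1.60 (SE 1.81).

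The genes whose log2 CPM most resembled each member over the 10 libraries were taken from 9477 genes as a description. Since they are the extremes of that search and the points share libraries, no test is given. The pattern of IGF2 was closest to FXYD6, with Pearson r = 0.97, and PRKCA, with r = 0.96. FXYD6, a regulator of the sodium pump, had 63.8 to 104 CPM in NLS-2SA-YAP1 tumors, 164 CPM in YAP1-MAML2-v2 replicate 7 and 0.454 CPM in replicate 4. IGF1 was closest to TRAPPC6A and TFEC, a transcription factor of the MITF family, each at r = 0.95. IGFBP6 was closest to SERPING1, the C1 inhibitor of complement, and CPED1 (r = 0.96 each). IGFBP5 was closest to PI16 (r = 0.94) and MFAP4, a microfibril-associated protein of elastic tissue (r = 0.92). IGFBP4 was closest to RASSF8 (r = 0.93) and CHPF (r = 0.90), IGFBP3 to TTLL12 and TUBG1 (r = 0.93 each), IGFBP2 to BBS9 (r = 0.91) and PODXL2 (r = 0.90), and IGFBP7 to SNF8 and RWDD1 (r = 0.90 each). IGF2R was closest to EARS2 and GGA2 (r = 0.93 each), and IGF1R to ISCA1 (r = 0.89) and CRYBG3 (r = 0.88).

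Some members share their locus with other annotated genes (GENCODE M21, mm10). Igf2, on chromosome 7 at 142650766 to 142666816, overlaps the coding gene Gm49394 and Mir483 on its own strand and Igf2os on the other. Igf2r, on chromosome 17 at 12682406 to 12769664, overlaps Airn on the other strand, Igf1 overlaps Igf1os, and Igfbp7 overlaps Polr2b and Gm34648 on the other strand. The libraries are stranded per the labels, but no source used here gives the strand setting of the counting or how reads of these overlaps were assigned, so the levels of these members carry that limit.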

How the data were processed

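RNA of 10 tumors was sequenced as stranded poly(A) libraries, per the labels' protocols. The authors counted reads with HTSeq on mm10 (versions and other steps not stated), per the submitters' processing notes, and the values they deposited were treated as estimated counts. These are whole numbers per gene with human-style symbols, of which 15475 of 16895 match GENCODE M21 ignoring case. Among 10505 genes whose median exceeds 200, the tables hold 251 values of 0, 219 of 1 and only 21 of 2, which plain read counts would not give. Depth is therefore unknown, and no counting intervals are given. The planned test, which allowed for estimated counts, was kept, and the values needed no rounding.

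Genes were filtered with filterByExpr at a minimum count of 10 (13707 kept), scaled by TMM and tested with edgeR 4.0.16 (R 4.3.3, quasi-likelihood, robust, construct and region as terms, Benjamini-Hochberg over all genes, threshold 0.05). DESeq2 1.42.0 and limma 3.58.1 were alternatives. The SE of an edgeR log2 fold change was derived as its absolute value divided by the square root of the quasi-likelihood F. Log2 CPM used a prior count of 2. The steps were also run on simulated negative binomial counts, drawn without a region effect and without the surplus of the lowest values seen here. That run therefore does not test how the steps handle these features. Named genes are all members, pathway genes past the threshold or else the 3 of smallest p per list, and the 2 genes of highest r per member. A gene that this rule names is not reported here. Members and lists were chosen with earlier results of these data known.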

Additional observations from a re-analysis of the deposited data

Results flagged for a closer look

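For 5 members, 6 comparisons showed a value that stood apart from the other libraries of their group by Dixon's gap test, among 20 groups examined (each member in the YAP1-MAML2-v2 tumors and in the extra cranial tumors). For separate groups of normally distributed values chance would mark about 1 in 20. The test was run on CPM rather than log2 CPM, and the groups share libraries. That rate need not hold here, so the count of 6 is not set against it. IGF2 was 7679 CPM in YAP1-MAML2-v2 replicate 7, with the nearest tumor of that construct at 883 CPM. IGF1R was 438 CPM in YAP1-MAML2-v2 replicate 2, with the nearest at 270.2 CPM. IGFBP2 was 1471 CPM in YAP1-MAML2-v2 replicate 4, with the nearest extra cranial tumor at 349 CPM. IGFBP3 was 861 CPM in YAP1-MAML2-v2 replicate 3, with the nearest extra cranial tumor at 117 CPM. IGFBP6 was 1225 CPM in YAP1-MAML2-v2 replicate 5 and stood apart both among tumors of that construct, where the nearest was 326 CPM, and among extra cranial tumors, where it was 418 CPM. The values fall in 5 different tumors, all of them YAP1-MAML2-v2, and the 3 NLS-2SA-YAP1 tumors were too few for this test on their own.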

How the results depend on the processing

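No member passed the threshold under any setting except IGF1 between constructs with DESeq2 (-2.12, adjusted p = 0.0303), which gave no p for IGFBP2 in either comparison. Counts of genes called between constructs, 2 in edgeR, were 674 with DESeq2, 92 with limma-voom, 4 without a filter on low values, 4 in extra cranial libraries only, 3 without the region term and 0 to 2 with 1 library left out. It was 0 without NLS-2SA-YAP1 replicates 2 or 3 or YAP1-MAML2-v2 replicates 2, 4 or 6, and 1 without YAP1-MAML2-v2 replicates 3 or 5. Between regions the count of 0 became 31 with DESeq2 and 0 to 1 with 1 library left out. IGF1, IGF2R, IGFBP4 and IGFBP7 kept their sign between constructs under every setting.

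Log2 fold changes between constructs that turned were, without the region term, IGF2 at -0.02 and IGFBP6 at 0.07, and with limma-voom IGFBP2 at 0.56, IGFBP3 at 0.57 and IGFBP6 at 0.77. With 1 library left out IGF1R ran from -0.10 to 0.87, IGFBP2 from -0.85 to 0.58, IGFBP3 from -1.75 to 0.04, IGFBP5 from -0.32 to 1.10 and IGFBP6 from -0.34 to 1.13. Between regions IGF1R then ran from -1.20 to 0.47, IGF2R from -0.47 to 0.19, IGFBP3 from -0.27 to 2.13, IGFBP6 from -1.89 to 0.21 and IGFBP7 from -0.58 to 0.76, and limma-voom put IGFBP5 at 0.01. The cause was not tested.

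Replicate numbers 1 to 3 occur in both constructs. Deviations of same-numbered libraries from their construct means correlated at 0.167, 0.337 and -0.072. Differently numbered libraries were not compared, and replicates 1 and 2 differ in region between constructs. Whether the numbers pair the tumors thus cannot be decided from these values. With the replicate block in place of region, on these 6 libraries, the count of called genes was 2, and IGF1R turned to -0.20, IGFBP2 to 0.29 and IGFBP6 to 1.58. IGF1 was -0.73 with the block (adjusted p = 0.785) and -1.41 without it, and IGFBP6 was 1.29 without it, a fit added after the data were seen. CPM without TMM scaling moved each member's group mean by less than 1 SD. Depth is unknown, so precision between constructs rests on 3 against 7 tumors, of which YAP1-MAML2-v2 replicate 7 does not inform the edgeR fit with region.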
